A study of Rattus norvegicus with 36 samples.

Results

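The initiation factor genes are the 49 genes of the array whose symbol starts with Eif. They were chosen by symbol alone, from probe sets annotated to a single gene, out of 14217 genes in all. Together they have 75 probe sets among 31042, and each gene is represented by its probe set of highest mean log2 signal over all arrays. Another 5 probe sets carry an Eif symbol together with a second symbol, among them those of Eif3e and Eif5, and were left out. Expression was measured in left soleus muscle of adult female Sprague Dawley rats, on 36 arrays with 6 rats per group. The control group (CTR) was age-matched and uninjured, and the sources used here describe no sham operation. The SCI3d, SCI8d and SCI14d groups were taken 3, 8 and 14 days after the thoracic cord had been moderately contused, an operation that also brought anesthesia, analgesics and an added soft diet. The SCI8d + TM and SCI14d + TM groups had the same injury followed by treadmill locomotor training, begun about 1 week after injury, and their muscles were taken some hours after the last session.

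Translation initiation brings the ribosome, the initiator transfer RNA and the start codon of an mRNA together. The factor eIF2 carries the initiator transfer RNA as a complex with GTP, and eIF2B recharges eIF2 with GTP after each round. The eIF2 kinases phosphorylate the alpha subunit of eIF2, which blocks eIF2B and lowers general protein synthesis while favoring the translation of a few mRNAs such as that of Atf4. The eIF4 factors bind the mRNA cap and unwind the leader, and the eIF4E binding proteins (4E-BPs) hold the cap-binding protein back until mTOR phosphorylates them. The eIF3 complex bridges the mRNA and the small ribosomal subunit. In muscle these steps set much of the rate of protein synthesis, which falls during disuse. The arrays measured mRNA and say nothing of protein amount or phosphorylation.

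The values are MAS 5.0 signals, a linear measure of probe set brightness. Slow fibers make up most of the soleus, and the 11 muscle fiber markers mix slow-fiber genes with genes of muscle in general. These markers had signals of at least 12637 on every array, and none was called in any comparison. Array medians ran from 166 to 187 in SCI3d and from 190 to 198 in CTR, without overlap. Over all genes the median log2 change on day 3 was -0.07. Replicate 3 of CTR, replicate 4 of SCI14d and replicate 1 of SCI14d + TM had a higher 3′ to 5′ ratio of Gapdh signal than the others, a sign of RNA quality. Without these 3 arrays 23 initiation factor genes were called on day 3, against 24 with them. In whole muscle, fewer cells of a type and less RNA per cell cannot be told apart. Eif2s3y, a gene of the Y chromosome on the annotation, gave signals of 0.243 to 44.7 in these female rats and is counted among the 49 but not described further.

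On day 3 after SCI, 23 of the 49 initiation factor genes were higher than in CTR and 1, Eif4e3, was lower. A gene was called changed when its adjusted p was under 0.05, with adjustment over all probe sets, and changes given without a unit are log2 differences of group means. Over all genes the arrays called 8.98% higher and 12.6% lower in the same comparison. At an unadjusted p under 0.05 limma counted 26 of the 49 (53.1%), against 33.7% of all genes. Of the 49, 48 were brighter than the dimmest 40% of probe sets, and the shares over all genes were not matched for brightness. The members called higher rose 1.23 to 2.45-fold, and the median log2 change of all 49 was 0.31. The changed genes came from every class except the eIF2 kinases. Higher levels were called for 2 of 4 eIF1 genes, 2 of 4 eIF2 subunits, 3 of 5 eIF2B subunits, 6 of 11 eIF3 subunits, 5 of 11 eIF4 genes, 2 of 3 4E-BPs, 2 of 3 eIF5 genes and Eif6. In 17 genes every SCI3d array was above every CTR array, against 4.64% of all genes, and in Eif4e3 every SCI3d array was below, against 6.19%. Of the 24 calls, 13 held under each of the alternative processings and each omission of 1 array. With every array scaled to its Gapdh signal, 14 were called.

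**Figure D1:**
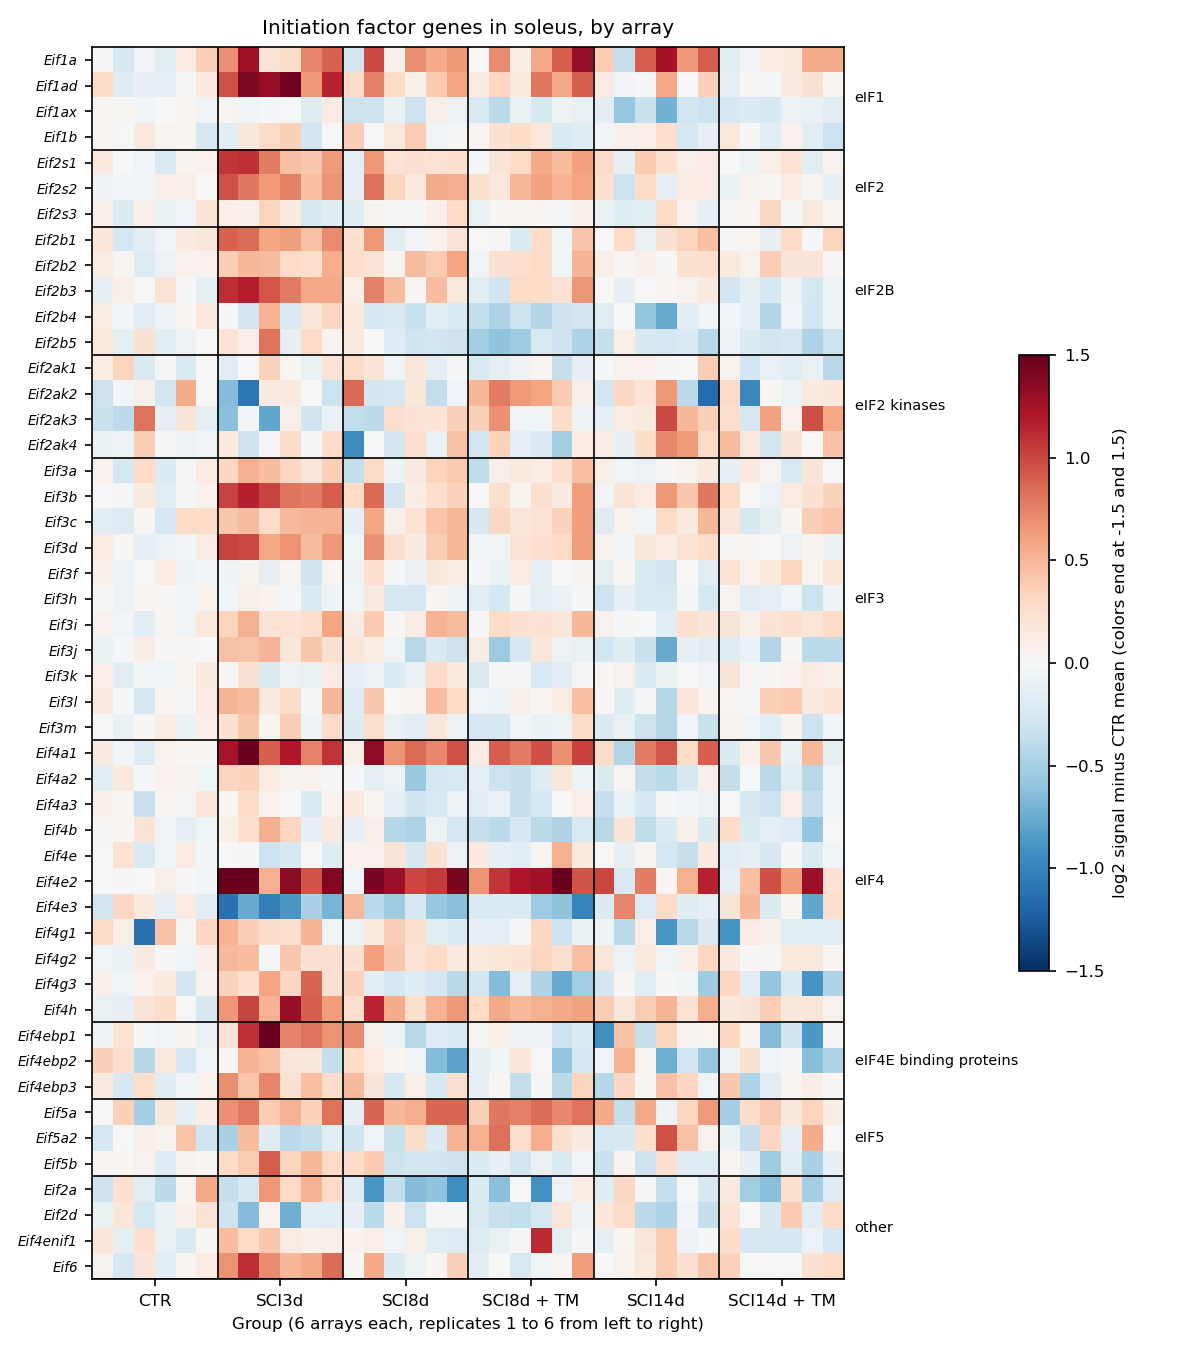
Heat map of log2 signal minus the CTR mean for 48 initiation factor genes (rows, by class, without Eif2s3y) on 36 arrays (columns, 6 per group), with red for higher and blue for lower. The SCI3d columns hold the most red cells, Eif4e3 is blue there, and the eIF2 kinase rows have no block of either color.

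Among the eIF1 genes, which help the ribosome find the start codon, Eif1ad changed most. Eif1ad encodes a protein with an eIF1A domain. In CTR the Eif1ad signal had a median of 613 and spanned 559 to 775. Eif1ad signals on the SCI3d arrays lay between 999.9 and 1735, with 1497 as the median. The groups did not overlap, and the level rose 2.23-fold (log2 1.16 ± 0.15 SE, adjusted p = 1.2e-06). Eif1a rose by 0.67 on the log2 scale (adjusted p = 0.041), with overlapping arrays, and 3 further probe sets of it also rose, by 0.76, 0.86 and 0.96. Eif1ax and Eif1b differed from CTR by -0.01 and 0.06, and neither was called.

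In eIF2 itself, the alpha and beta subunits rose and the gamma subunit was not called. Eif2s1, the alpha subunit and substrate of the kinases, stood as follows. The median Eif2s1 signal in CTR was 2932, with a lowest of 2449.8 and a highest of 3179. The Eif2s1 signal in SCI3d ran from 3796 to 6161, with a median of 4673. Each injured muscle was above each control, a rise of 1.67-fold (log2 0.74 ± 0.13 SE, adjusted p = 8.4e-05). Eif2s2, the beta subunit, rose as well. In CTR the Eif2s2 signal had a median of 10116 and spanned 9718 to 11019. Eif2s2 signals on the SCI3d arrays lay between 14100.5 and 19909.7, with 16949 as the median. These did not overlap either, a rise of 1.64-fold (log2 0.71 ± 0.12 SE, adjusted p = 8.6e-05). For Eif2s3, the gamma subunit that binds GTP, the difference was 0.04 with a 95% interval of -0.17 to 0.24.

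The exchange factor eIF2B changed in part. Eif2b3, the gamma subunit of the catalytic arm, rose 1.81-fold (log2 0.86 ± 0.13 SE, adjusted p = 2e-05). The median Eif2b3 signal in CTR was 1269.6, with a lowest of 1166 and a highest of 1492. The Eif2b3 signal in SCI3d ran from 1903 to 2901, with a median of 2334. Eif2b1, the alpha subunit that senses phosphorylated eIF2, was also higher on every SCI3d array. In CTR the Eif2b1 signal had a median of 1387 and spanned 1118 to 1529. Eif2b1 signals on the SCI3d arrays lay between 1826 and 2494, with 2140.1 as the median. Its rise was 1.60-fold (log2 0.68 ± 0.13 SE, adjusted p = 0.00027). Eif2b2, the beta subunit, rose by 0.41 (adjusted p = 0.0042). The delta subunit Eif2b4 differed by 0.08. The catalytic epsilon subunit Eif2b5 differed by 0.23, with an interval of -0.02 to 0.47, and was not called.

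In the reported fit none of the 4 eIF2 kinases was called on day 3 or in any of the other comparisons. Of their 40 limma tests 3 had an unadjusted p under 0.05. Eif2ak1 (HRI) responds to heme shortage. The median Eif2ak1 signal in CTR was 1831, with a lowest of 1579.9 and a highest of 2329.7. The Eif2ak1 signal in SCI3d ran from 1650.5 to 2334, with a median of 1857. The ranges were alike, with a difference of 0.05 and an interval of -0.17 to 0.27. Eif2ak2 (PKR) responds to double-stranded RNA. In CTR the Eif2ak2 signal had a median of 339 and spanned 275 to 508. Eif2ak2 signals on the SCI3d arrays lay between 163 and 379.6, with 310.4 as the median. These overlapped, with a difference of -0.30 and an interval of -0.82 to 0.22.

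Eif2ak3 (PERK) is the kinase of the endoplasmic reticulum. The median Eif2ak3 signal in CTR was 390.3, with a lowest of 329.5 and a highest of 756. The Eif2ak3 signal in SCI3d ran from 250.3 to 461, with a median of 376. The groups overlapped, and the difference was -0.29 with an interval of -0.73 to 0.15. From day 3 to day 14 Eif2ak3 differed by 0.62 (adjusted p = 0.051), just short of the threshold. It was called in that comparison under several alternatives, among them scaling to Gapdh, 1 probe set per gene and a replicate block. Eif2ak4 (GCN2) senses uncharged transfer RNA. In CTR the Eif2ak4 signal had a median of 361 and spanned 354 to 492. Eif2ak4 signals on the SCI3d arrays lay between 307 and 465, with 399 as the median. The difference was 0.06 with an interval of -0.32 to 0.44. The upper ends of the 4 intervals lie between 0.15 and 0.44, below the rises of 0.74 and 0.71 in Eif2s1 and Eif2s2. The smallest called rise on day 3, 0.30 in Eif4g2, lies within the interval of Eif2ak4. Differences between genes were not tested.

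**Figure D2:**
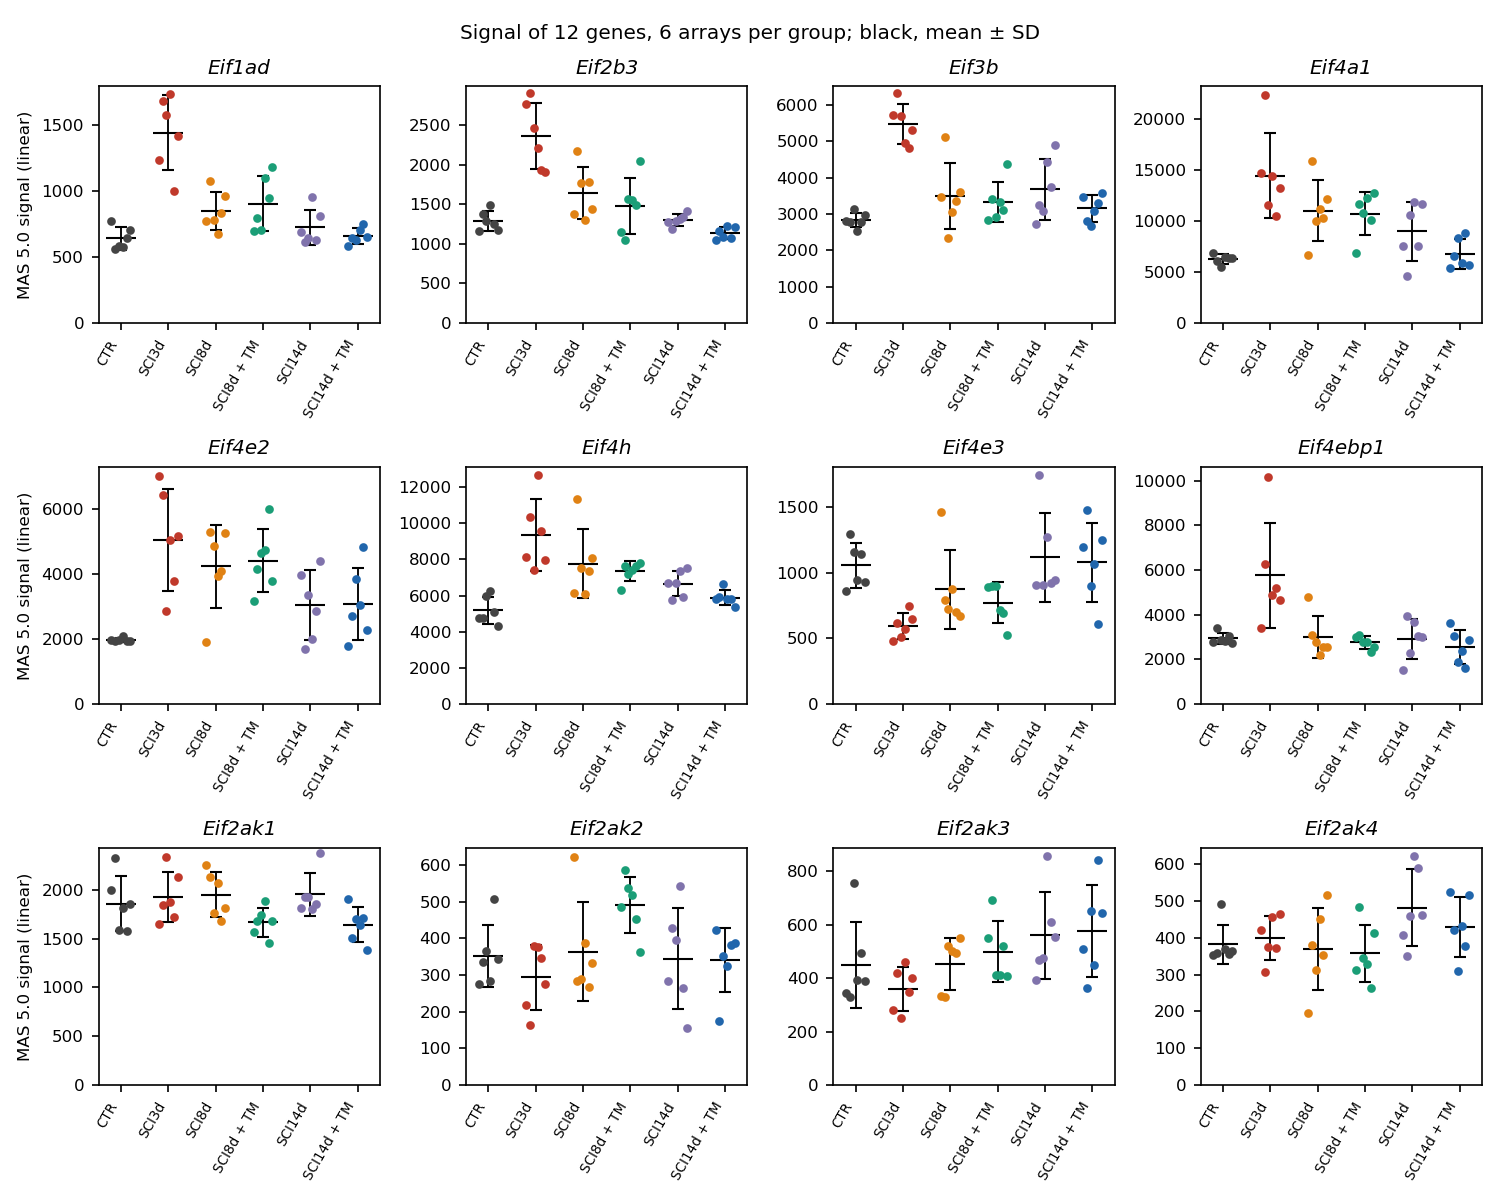
MAS 5.0 signal (linear axis from 0) of 12 genes on the 6 arrays of each group, with the mean ± SD in black. Eif1ad, Eif2b3, Eif3b, Eif4a1, Eif4e2, Eif4h and Eif4ebp1 are above every CTR array in SCI3d, Eif4e3 is below, and the 4 eIF2 kinases overlap.

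Of the 11 eIF3 subunits, 6 rose on day 3. Eif3b, a scaffold subunit with an RNA recognition motif, rose most. The median Eif3b signal in CTR was 2806, with a lowest of 2519 and a highest of 3129. The Eif3b signal in SCI3d ran from 4824 to 6325, with a median of 5508. The gap between the groups was wide, and the rise was 1.93-fold (log2 0.95 ± 0.14 SE, adjusted p = 1e-05). Eif3d, the subunit that can bind mRNA caps, followed. In CTR the Eif3d signal had a median of 4785 and spanned 4495 to 5331. Eif3d signals on the SCI3d arrays lay between 6798 and 9854, with 7731 as the median. These did not overlap, and the rise was 1.66-fold (log2 0.73 ± 0.12 SE, adjusted p = 2.4e-05). The log2 rises of Eif3a, Eif3c, Eif3i and Eif3j ran from 0.35 in Eif3i to 0.44 in Eif3c. Eif3a and Eif3j lost their calls under 13 and 9 of the 27 alternatives. Eif3f, Eif3h, Eif3k, Eif3l and Eif3m lay between -0.06 and 0.31 and were not called, while a second probe set of Eif3l rose by 0.41 (adjusted p = 0.043).

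In the eIF4 class the changes ran in both directions among the cap-binding proteins. Eif4e2, a cap-binding protein that does not recruit the scaffold eIF4G and is known as a repressor, rose most of all 49 genes. The median Eif4e2 signal in CTR was 1949.7, with a lowest of 1925 and a highest of 2099. The Eif4e2 signal in SCI3d ran from 2853 to 7019, with a median of 5112. The CTR values lay close together and the SCI3d values spread widely above them, a rise of 2.45-fold (log2 1.29 ± 0.25 SE, adjusted p = 0.00026). Eif4e3, the third cap-binding protein, fell. In CTR the Eif4e3 signal had a median of 1040.1 and spanned 863 to 1297. Eif4e3 signals on the SCI3d arrays lay between 479 and 744, with 594 as the median. Every injured muscle was below every control, with a log2 change of -0.83 ± 0.20 (SE, adjusted p = 0.0027), and a second probe set fell by 0.73. Eif4e, the main cap-binding protein, differed by -0.12 with an interval of -0.34 to 0.10 and was not called.

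The helicase Eif4a1 and its stimulating cofactor Eif4h rose. The median Eif4a1 signal in CTR was 6357, with a lowest of 5464 and a highest of 6876. The Eif4a1 signal in SCI3d ran from 10458 to 22336, with a median of 13821. The rise of Eif4a1 was 2.24-fold (log2 1.16 ± 0.20 SE, adjusted p = 8.4e-05). In CTR the Eif4h signal had a median of 4936 and spanned 4340.2 to 6229. Eif4h signals on the SCI3d arrays lay between 7405 and 12697, with 8838 as the median. The rise of Eif4h was 1.78-fold (log2 0.84 ± 0.13 SE, adjusted p = 1.7e-05), and its second, dimmer probe set rose by 2.24. Neither gene had overlapping groups. The paralogs Eif4a2 and Eif4a3 differed by 0.15 and 0.03, and the cofactor Eif4b by 0.20, none of them called. A second probe set of Eif4a2 did rise, by 0.43 (adjusted p = 0.033), and that of Eif4b stood at -0.26 and was not called. Of the scaffolds, Eif4g2 and Eif4g3 rose by 0.30 and 0.43, with adjusted p of 0.035 and 0.045. Eif4g1 differed by 0.32, with an interval of -0.07 to 0.71.

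Of the 3 inhibitors of the cap-binding protein, 2 rose. Eif4ebp1, the best known mTOR substrate of the family, rose 1.85-fold (log2 0.89 ± 0.22 SE, adjusted p = 0.0033). The median Eif4ebp1 signal in CTR was 2845, with a lowest of 2724 and a highest of 3389. The Eif4ebp1 signal in SCI3d ran from 3394 to 10181, with a median of 5032. The lowest SCI3d array was barely above the highest CTR array. Eif4ebp3 rose by 0.47 (adjusted p = 0.034). In CTR the Eif4ebp3 signal had a median of 953 and spanned 798 to 1128. Eif4ebp3 signals on the SCI3d arrays lay between 1100.3 and 1569.7, with 1271 as the median. The groups overlapped at their edges. Eif4ebp2 overlapped throughout. The median Eif4ebp2 signal in CTR was 1849, with a lowest of 1332 and a highest of 2285. The Eif4ebp2 signal in SCI3d ran from 1392 to 2565, with a median of 2011. Its difference was 0.16, with an interval of -0.24 to 0.57.

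In the eIF5 class and among the other factors, Eif5a, Eif5b and Eif6 rose. Eif6, which keeps the large ribosomal subunit from joining too early and takes part in making it, rose 1.66-fold (log2 0.73 ± 0.13 SE, adjusted p = 0.00016). In CTR the Eif6 signal had a median of 2535 and spanned 2067 to 2802. Eif6 signals on the SCI3d arrays lay between 3464 and 5276, with 3956 as the median. The groups did not overlap. Eif5a, the hypusine-bearing factor that also acts in elongation, rose by 0.59 (adjusted p = 0.018). Eif5b, the GTPase that joins the ribosomal subunits, rose by 0.45 (adjusted p = 0.014). Eif5a2, Eif2a, Eif2d and Eif4enif1 were not called, with differences from -0.32 in Eif2d to 0.24 in Eif4enif1.

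**Figure D3:**
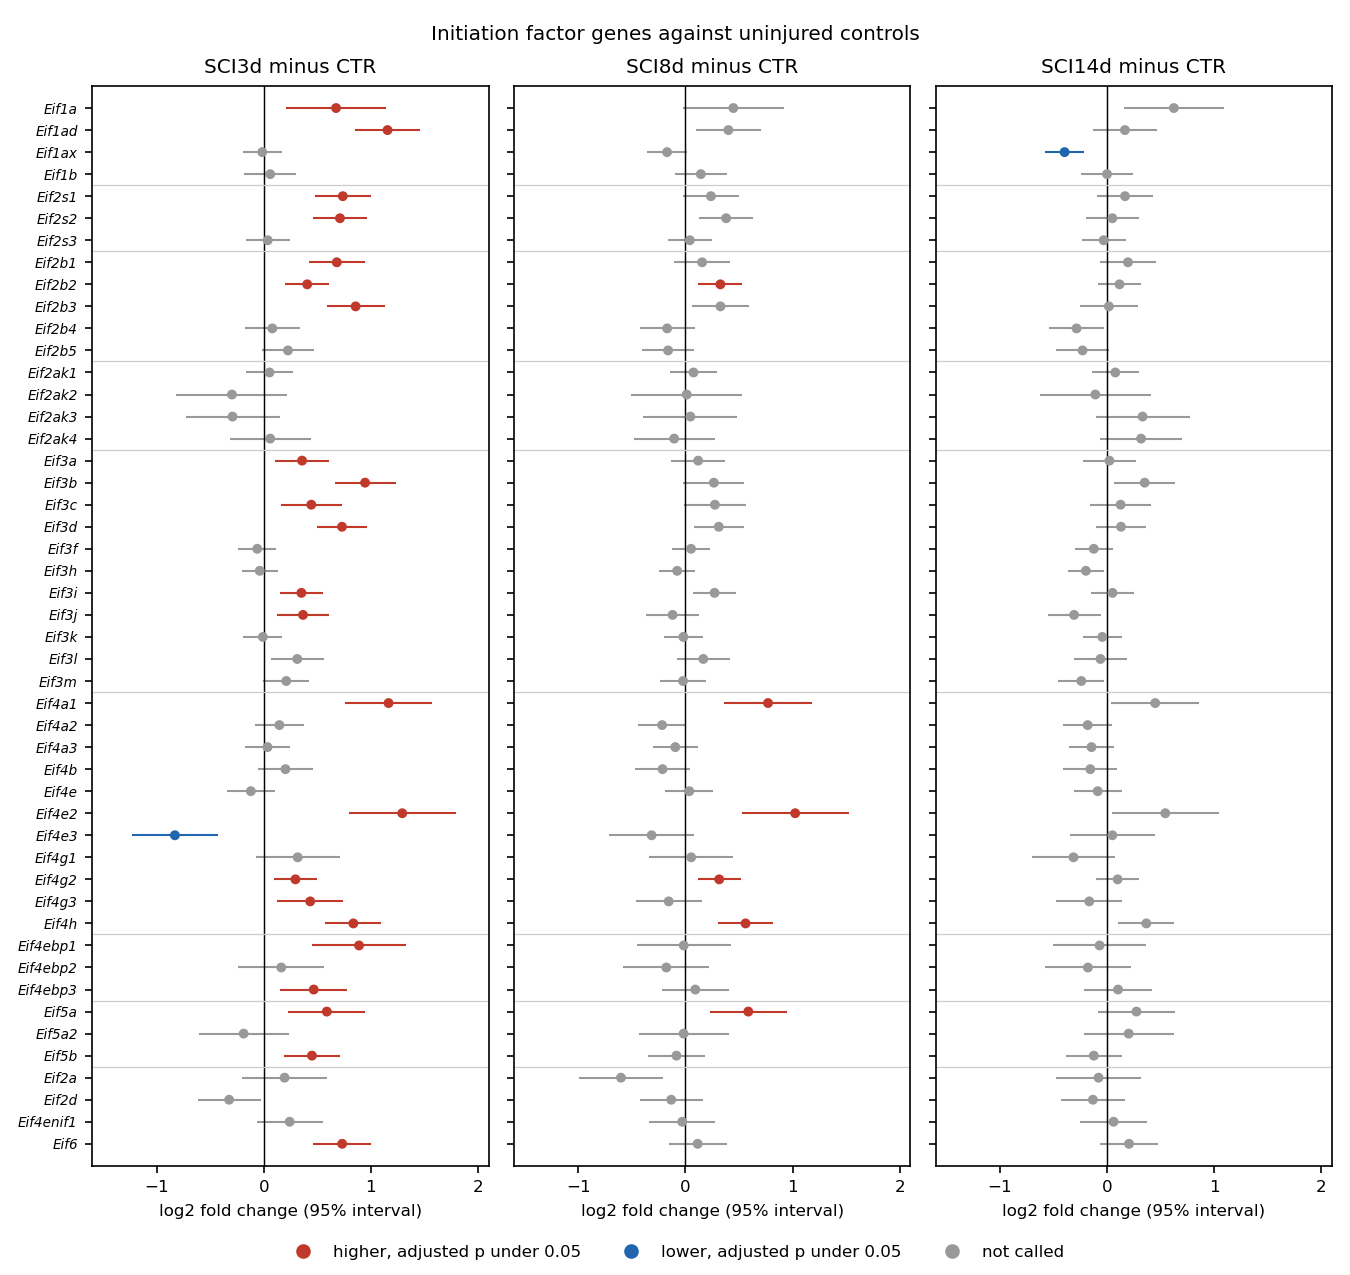
Log2 fold change with its 95% interval for 48 initiation factor genes (rows, by class) in SCI3d, SCI8d and SCI14d against CTR, red where called higher, blue where called lower and grey where not called. The number of colored points falls from 24 on day 3 to 6 on day 8 and 1 on day 14.

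Promoter sequences were read for the members, whether called or not, to show the letters near their start sites. RefSeq promoters (GRCr8, the 250 bases before the start of 1 transcript per gene) were found for 45 of the 49 genes, 22 of them called on day 3. In 24 of the 45 that start differs from the outermost start of the gene in the annotation, so part of a window can lie inside the gene. The E-box CACGTG, bound by MYC, MAX and USF proteins, is its own reverse complement, and 8 of the 45 held it (17.8%), against 5.8% of 27457 rat promoters. Of the 22 promoters of genes called on day 3, 3 held it, those of Eif3b, Eif4h and Eif5a. The rest of the 8 belong to genes not called on day 3, namely Eif1b, Eif3f, Eif4e, Eif4g1 and Eif5a2. The letters TTGCATCA of the amino acid response element, which ATF4 binds together with C/EBP proteins, were searched on both strands and occurred in 1 of the 45, that of Eif2s2, against 0.656% of all promoters. These matches are descriptions and not sites shown to be bound. The matches of Eif4h and Eif2s2 lie at or past the outermost start of the gene and are not printed. The stretches of the other 2 called genes follow, read along each gene's own strand toward its start, with the match in capitals.
Eif3b: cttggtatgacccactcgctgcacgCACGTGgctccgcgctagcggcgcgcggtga
Eif5a: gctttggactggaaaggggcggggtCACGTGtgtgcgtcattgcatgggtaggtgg
The stretch of Eif3b lies at chr12:19334795-19334850 on the minus strand, and its E-box at chr12:19334820-19334825 begins 57 bases before the start of the gene. The stretch of Eif5a lies at chr10:55143397-55143452 on the minus strand, and its E-box at chr10:55143422-55143427 begins 206 bases before the start of the transcript used and 155 bases before the outermost start of the gene.

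Partners and regulators of initiation changed in both directions on day 3. Of 25 measured, 8 were higher and 4 lower (32% and 16%, against 8.98% and 12.6% of all genes), with a median log2 change of 0.17 against -0.07 over all genes. Abce1, which recycles ribosomes and binds eIF3, rose 2-fold. Ppp1r15a (GADD34), the subunit that directs dephosphorylation of eIF2 alpha, rose by 0.98. The GCN2 activator Gcn1 and the PERK and PKR inhibitor Dnajc3 rose by 0.61 and 0.66. Mtor and its partner Rptor rose by 0.48 and 0.39, as did Paip1, which binds the poly(A)-binding protein, by 0.66 and the helicase Dhx29 by 0.55. Lower were Mknk1, a kinase of eIF4E, at -0.73, Pdcd4, an inhibitor of the eIF4A helicase, at -0.56, Pabpc4 at -0.36 and Nck1 at -0.36.

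Of 22 genes listed as ATF4 and its targets, 3 were higher and 1 lower on day 3 (13.6% and 4.55%, against 8.98% and 12.6% of all genes), with a median of 0.21. Atf4 itself rose by 0.72 (adjusted p = 0.0016). The pseudokinase gene Trib3 and the mTOR-restraining stress gene Sesn2 rose by 1.02 and 1.33, and the lipoprotein receptor Vldlr was 2-fold lower. On day 8 none of the 22 was higher, and 13.6% were lower against 4.99% of all genes, namely Ddit3 (CHOP), Ddit4 and Cebpg, at -1.07, -0.87 and -0.42. On day 14 Ddit4 and Cebpg were lower, at -1.13 and -0.55 (9.09% of the list against 2.59% of all genes). Among the partners, Mtor was the single call on day 8 (0.42) and Paip1 the single call on day 14 (0.81).

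Other cell types also moved with the day 3 group. Of the 5 measured adipocyte markers 4 were lower, and their mean log2 level relative to CTR ran from -2.81 to -1.19 in SCI3d and from -0.98 to 1.22 in CTR. Of the 4 measured erythrocyte markers 3 were higher, running from 0.58 to 2.60 against -0.46 to 0.57, and the same number were higher on day 8. The 13 macrophage and leukocyte markers had 1 higher and 1 lower. None of these markers was at 0 on the arrays, and their part in the changes of the initiation factors was not tested.

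On day 8 after SCI, 6 initiation factor genes were higher than in CTR and none was lower, against 3.44% and 4.99% of all genes. The 6 were Eif4e2, Eif4a1, Eif4h, Eif5a, Eif2b2 and Eif4g2, of which 4 belong to the eIF4 class, and all 6 had also been called higher on day 3, in a comparison with the same CTR arrays. The median Eif4e2 signal in SCI8d was 4474, with a lowest of 1912 and a highest of 5300.5. The Eif4a1 signal in SCI8d ran from 6682 to 15829, with a median of 10718. In SCI8d the Eif4h signal had a median of 7451 and spanned 6104 to 11351. The lowest SCI8d array of Eif4e2 lay under the lowest CTR array, so the groups overlapped, and its rise was 2.03-fold (log2 1.02 ± 0.25 SE, adjusted p = 0.01). Eif4a1 rose by 0.77 (adjusted p = 0.018) and Eif4h by 0.56 (adjusted p = 0.0071). The log2 rises of Eif5a, Eif2b2 and Eif4g2 were 0.59, 0.33 and 0.32, with adjusted p from 0.04 to 0.048.

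The count on day 8 was sensitive to single arrays, and only Eif4e2 was called under every alternative. It fell to 3 without replicate 1, 5 or 6 of CTR or replicate 4 or 5 of SCI8d and to 2 without replicate 2 of SCI8d, and it was 9 without replicate 1 of SCI8d. A second probe set of Eif3c was also higher, at 0.67 (adjusted p = 0.046), while its brightest one stood at 0.28. The largest fall on day 8 was that of Eif2a, at -0.60 (adjusted p = 0.056), which was not called. Eif2a was called lower under some alternatives, among them array weights, 1 probe set per gene and the omission of replicate 1 of SCI8d. The eIF2 subunits and 4E-BPs were not called on day 8. Eif2s2 differed from CTR by 0.38 (adjusted p = 0.058), Eif2s1 by 0.24 and Eif4ebp1 by -0.02. The kinases lay between -0.11 in Eif2ak4 and 0.08 in Eif2ak1. Of eIF2B, the uncalled Eif2b1, Eif2b3, Eif2b4 and Eif2b5 stood at 0.16, 0.33, -0.17 and -0.16.

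On day 14 after SCI a single initiation factor gene was called against CTR. Eif1ax, an eIF1A gene of the scanning ribosome, was lower, and no gene was higher, against 2.59% and 1.86% of all genes. Eif1ax signals on the CTR arrays lay between 10004 and 10676, with 10466 as the median. The median Eif1ax signal in SCI14d was 8283, with a lowest of 6348 and a highest of 9251. Every SCI14d array was below every CTR array, with a log2 change of -0.40 ± 0.09 (SE, adjusted p = 0.013). The call was lost with scaling to Gapdh, a model of 2 groups alone and the t-test of the study's methods. With scaling to Gapdh the single call was Eif4h, which was higher. The Eif1ax arrays of both trained groups were also all below the CTR arrays, without a call. The Eif3j arrays of SCI14d were all below the CTR arrays too, at -0.31 and without a call. The share of all genes without overlap was counted on day 3 only. Without replicate 2 of SCI14d, 3 genes were called. A second probe set of Eif4b was also lower, at -0.64 (adjusted p = 0.025), while its brightest one stood at -0.16. The genes with the largest rises on day 3 were not called on day 14, with Eif4e2 at 0.54, Eif4a1 at 0.45 and Eif1ad at 0.17. The 4 kinases lay between -0.11 in Eif2ak2 and 0.33 in Eif2ak3.

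The days were also compared with each other, which tests whether the change from CTR differed between them. From day 3 to day 8, 15 initiation factor genes were lower and none was higher, against 4.47% and 4.75% of all genes. None of the 15 calls held under every alternative, and the methods' t-test made 0 calls after adjustment and a model of these 2 groups alone 3. From day 3 to day 14, 22 were lower and 1, Eif4e3, was higher, against 6.82% and 10.7%. Of these 23 calls 4 held under every alternative, those of Eif1ad, Eif2b3, Eif3j and Eif4e3. With every array scaled to its Gapdh signal 3 genes were lower and 2, Eif4e3 and Eif2ak3, were higher. The median log2 difference of the 49 genes was -0.24 by day 8 and -0.34 by day 14, where the medians over all genes were 0.06 and 0.15. Fibroblast and cell cycle markers were called higher on the later days than on day 3. These were 4 of 8 and 6 of 7 on day 8, and 6 of 8 and 6 of 7 on day 14. Of 13 macrophage and leukocyte markers 1 was higher on each day, and no adipocyte or endothelium marker was called. On day 14, 1 of 4 erythrocyte markers was lower and 1 of 3 Schwann cell markers was higher. The mean log2 level of the cell cycle markers relative to CTR ran from -0.35 to 1.11 in SCI3d, from 0.25 to 2.46 in SCI8d and from 0.81 to 2.84 in SCI14d. That of the fibroblast markers ran from -0.98 to 0.35, from -0.54 to 1.21 and from 0.34 to 1.15. Their part in the differences of the initiation factors was not tested. These comparisons share the SCI3d arrays with the first one, and are not independent of it. Of the 24 genes changed on day 3, 11 moved back by day 8 and 17 by day 14 past the threshold. The 24 were picked on the same SCI3d arrays, which by itself favors a move back. The share that moved back among all genes called on day 3 was not counted. The log2 falls by day 14 ran from 0.30 in Eif3i to 0.99 in Eif1ad. The Eif1ad signal in SCI14d ran from 611 to 951, with a median of 667. Eif4ebp1 fell by 0.91 from day 3 (adjusted p = 0.0081). In SCI8d the Eif4ebp1 signal had a median of 2678 and spanned 2205 to 4793. Eif5a, Eif4g2 and Eif2b2 were not called between days 3 and 8, with differences of -0.0012, 0.02 and -0.08. A second probe set of Eif4e3 was higher on day 8 than on day 3, at 0.68 (adjusted p = 0.008), while its brightest one stood at 0.51 and was not called.

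Several genes whose brightest probe set was not called against CTR on days 3, 8 or 14 were lower on a later day than on day 3. Eif2b5, Eif4a2, Eif4b and Eif2a were lower on day 8 than on day 3, by 0.39, 0.36, 0.42 and 0.80 on the log2 scale. Second probe sets of Eif2b5, Eif4a2 and Eif4b stood at -0.29, -0.11 and -0.10 and were not called. The calls of these 3 genes were lost under 14, 12 and 13 of the 27 alternatives. Eif3l, Eif3m and Eif4g1 were lower on day 14, by 0.37, 0.45 and 0.63. Of the 3 other probe sets of Eif4g1, none was called, and they stood at -0.74, -0.76 and 0.43.

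**Figure D4:**
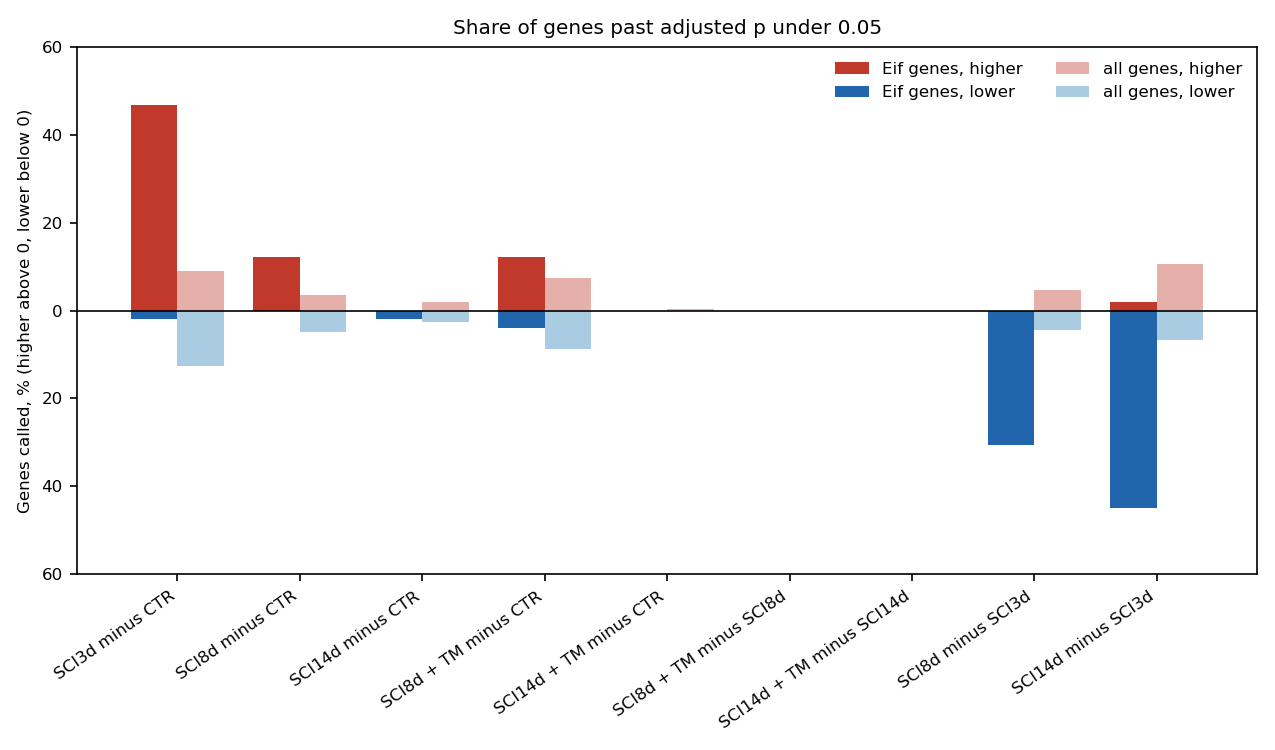
Percent of the 49 initiation factor genes (dark bars) and of all 14217 genes (pale bars) called higher (above 0) or lower (below 0) at adjusted p under 0.05 in 9 comparisons. The initiation factors stand above all genes for higher calls in SCI3d, SCI8d and SCI8d + TM minus CTR. They also do so for lower calls in SCI8d and SCI14d minus SCI3d, and both training comparisons are empty.

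Each trained group was set against untrained injured rats of its own day. No initiation factor gene was called on day 8 or on day 14, and neither was any other gene of the array (0% in each direction on both days). At an unadjusted p under 0.05 limma counted 4 of the 49 on each day (8.16%), against 4.11% of all genes on day 8 and 6.9% on day 14. The methods' t-test counted 5 on day 8 and 9 on day 14 (10.2% and 18.4%, against 3.85% and 6.59% of all genes), with none after adjustment. Apart from Eif2s3y, the log2 differences ran from -0.31 to 0.48 on day 8 and from -0.43 to 0.29 on day 14. The largest on day 8 was that of the kinase Eif2ak2. Eif2ak2 signals on the SCI8d arrays lay between 267 and 623, with 311 as the median. The median Eif2ak2 signal in SCI8d + TM was 501, with a lowest of 363 and a highest of 586. The groups overlapped through 1 bright untrained array, and the difference was 0.48 with an interval of -0.04 to 0.999.

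Eif2ak1 had a lower median signal in the trained group on both days and was not called. The Eif2ak1 signal in SCI8d + TM ran from 1450.0 to 1887, with a median of 1679. In SCI14d the Eif2ak1 signal had a median of 1888 and spanned 1807 to 2378. Eif2ak1 signals on the SCI14d + TM arrays lay between 1383 and 1907, with 1671 as the median. The differences were -0.22 on day 8 and -0.25 on day 14. A second probe set of Eif2ak1 differed less, by -0.06 on day 8 and -0.05 on day 14, and was not called. For Eif4ebp1 the differences were -0.08 and -0.18, and for Eif2s1 0.12 and -0.15. The effect of training was also compared between the days by an interaction term, which called no initiation factor gene and 0% of all genes in either direction, with 1 of the 49, Eif3f, at an unadjusted p under 0.05 in limma. The largest such difference among the 48 genes was -0.59. The SCI14d + TM rats had been trained over several days and the SCI8d + TM rats in the first sessions only, so day and amount of training cannot be told apart here.

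Trained muscle was last set against the uninjured controls. In SCI8d + TM, 6 initiation factor genes were higher and 2 lower than in CTR, against 7.4% and 8.72% of all genes. With each array centred on its median 3 were higher and 6 lower, and with scaling to Gapdh 4 were higher and none was lower. The 6 were Eif4e2, Eif4a1, Eif5a, Eif4h, Eif1ad and Eif2s2, with log2 rises from 0.43 in Eif2s2 to 1.13 in Eif4e2. The median Eif4e2 signal in SCI8d + TM was 4386, with a lowest of 3155 and a highest of 5997. The Eif4h signal in SCI8d + TM ran from 6314 to 7819, with a median of 7531. In SCI8d + TM the Eif2s2 signal had a median of 14630.5 and spanned 11531 to 15608. All SCI8d + TM arrays of these 3 genes and of the uncalled Eif4g2 were above the CTR arrays, which makes 4 genes. In 4 others, Eif1ax, Eif2b4, Eif2b5 and Eif4b, all lay below. The share of all genes without overlap was not counted for this comparison. Lower were the catalytic eIF2B subunit Eif2b5 (-0.44, adjusted p = 0.014) and the scaffold Eif4g3 (-0.47, adjusted p = 0.039). Eif2b5 signals on the CTR arrays lay between 1291 and 1698, with 1417 as the median. The median Eif2b5 signal in SCI8d + TM was 1033, with a lowest of 954 and a highest of 1235. The arrays of Eif2b5 did not overlap, while a second probe set of it stood at -0.04 and was not called. A second, very dim probe set of Eif4g3 differed in the other direction, at 0.96, and was not called. Other probe sets were called higher in genes whose brightest one was not, namely all 3 of Eif1a, from 0.71 to 0.86, and 1 each of Eif3a (1.04), Eif3c (0.65), Eif4e (1.57) and Eif4g2 (0.40). Among partners and regulators, Mtor was higher at 0.46 and Pdcd4 and Paip2b were lower at -0.50 and -0.69. Of the ATF4 list 4.55% were higher and 18.2% lower, against 7.4% and 8.72% of all genes. The proline synthesis gene Aldh18a1 was higher at 1.18, and Ddit3, Cebpb, Cebpg and Ddit4 were lower, from -1.11 in Ddit3 to -0.65 in Ddit4. In the same group all 7 cell cycle markers and 4 of 8 fibroblast markers were higher than in CTR. So were 4 of 13 macrophage and leukocyte markers and 3 of 4 erythrocyte markers. Lower than in CTR were 3 of 5 adipocyte, 1 of 4 endothelium and 1 of 3 Schwann cell markers. The part of these markers in the differences of the initiation factors was not tested.

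In SCI14d + TM no initiation factor gene was called against CTR, against 0.394% of all genes higher and 0.106% lower. At an unadjusted p under 0.05 limma counted 7 of the 49 (14.3%, against 14.4% of all genes) and the methods' t-test 11 (22.4%, against 18.4%). Apart from Eif2s3y, the largest difference was that of Eif4e2. The Eif4e2 signal in SCI14d + TM ran from 1776 to 4829, with a median of 2870.5. Its log2 difference was 0.57, with an interval of 0.07 to 1.06. Eif1ad and Eif4a1 stood at 0.05 and 0.09, and Eif4ebp1 at -0.25. In SCI14d + TM the Eif4a1 signal had a median of 6223 and spanned 5362 to 8772. The SCI14d + TM arrays of Eif4a1 lay around the CTR arrays.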

How the data were processed

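The authors hybridized RNA of 36 left soleus muscles to Affymetrix rat whole-genome arrays, 1 array per rat and 6 per group, and made the deposited intensity values with MAS 5.0. The array medians ran from 166 to 234, and the number of arrays limits the precision. Signals were taken to log2 as deposited, 57 manufacturer controls were left out, and a linear model was fitted to 31042 probe sets in R 4.3.3 with limma 3.58.1 (lmFit, eBayes with intensity trend, 1 mean per group, 30 residual degrees of freedom). P-values were adjusted by Benjamini-Hochberg over all probe sets and called under 0.05. Genes were named through the platform annotation, and all 49 matched RefSeq. The study tested with a t-test, which was run as an alternative ("the methods' t-test"). The fit was tested on simulated data. The members, lists and motifs were chosen with earlier results of these data known. Named are every initiation factor gene called in any comparison and all eIF2, eIF2B, kinase and 4E-BP genes. Signals by group are given for the 12 called genes of smallest adjusted p, the kinases and the 4E-BPs, and for a few others chosen after their values were seen (Eif1ax, Eif2b5). Intervals are 95% intervals of the fit, not adjusted. Replicate numbers were not used to pair rats.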

Additional observations from a re-analysis of the deposited data

Results flagged for a closer look

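In the 19 genes with signals by group, 114 sets of 6 arrays were searched for an array far from the others, and 7 held one, where chance alone gives about 1 in 20. The measure is the gap to the nearest array over the range of the group, judged against Dixon's critical value. In Eif2ak1, replicate 6 of SCI14d had a signal of 2378 against 1807 to 1931 on the others (ratio 0.759). In Eif2ak2, replicate 2 of SCI14d + TM had a signal of 176 against 325 to 422 on the others (ratio 0.703). In Eif2ak4, replicate 3 of CTR had a signal of 492 against 354 to 371 on the others (ratio 0.86). In Eif4e2, replicate 4 of CTR had a signal of 2099 against 1925 to 1982 on the others (ratio 0.666). In Eif4e2, replicate 1 of SCI8d had a signal of 1912 against 3948 to 5300.5 on the others (ratio 0.711). In Eif4e3, replicate 1 of SCI8d had a signal of 1465 against 674 to 878 on the others (ratio 0.659). In Eif6, replicate 6 of SCI8d + TM had a signal of 3801 against 2101 to 2496 on the others (ratio 0.71). Replicate 1 of SCI8d stood apart in both Eif4e2, where it was low, and Eif4e3, where it was high. Without it, 9 initiation factor genes were called on day 8 against CTR.

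The change from CTR differed between days in the genes called between SCI groups. The log2 difference of day 8 minus day 3 was Eif1ad -0.75, Eif2a -0.80, Eif2b1 -0.53, Eif2b3 -0.53, Eif2b5 -0.39, Eif2s1 -0.50, Eif3b -0.68, Eif3d -0.42, Eif3j -0.49, Eif4a2 -0.36, Eif4b -0.42, Eif4ebp1 -0.91, Eif4g3 -0.59, Eif5b -0.53 and Eif6 -0.62. The log2 difference of day 14 minus day 3 was Eif1ad -0.99, Eif1ax -0.38, Eif2b1 -0.49, Eif2b3 -0.84, Eif2b5 -0.45, Eif2s1 -0.57, Eif2s2 -0.66, Eif3b -0.59, Eif3d -0.60, Eif3i -0.30 and Eif3j -0.67. In the remaining genes it was Eif3l -0.37, Eif3m -0.45, Eif4a1 -0.72, Eif4a2 -0.33, Eif4e2 -0.75, Eif4ebp1 -0.96, Eif4g1 -0.63, Eif4g3 -0.60, Eif4h -0.47, Eif5b -0.57 and Eif6 -0.53. In Eif4e3 it was 0.88. The interaction of training with day called no gene.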

How the results depend on the processing

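The counts of initiation factor genes called changed with the processing as follows, and the cause was not tested. With scaling to Gapdh the counts were 14 for SCI3d minus CTR (24 as reported), 1 for SCI8d minus CTR (6), 4 for SCI8d + TM minus CTR (8), 5 for SCI8d minus SCI3d (15) and 5 for SCI14d minus SCI3d (23). For SCI8d minus CTR they were 3 with median centring, 3 with no intensity trend, 11 with array weights, 3 with a model of these 2 groups alone, 3 with the Gapdh ratio as a covariate and 2 with the methods' t-test. For SCI14d minus CTR (1) they were 2 with quantile normalization, 2 with array weights, 0 with 2 groups alone, 0 with the t-test and 2 with probe sets averaged per gene. For SCI8d + TM minus CTR array weights gave 13. With 2 groups alone or the t-test the counts were 3 and 0 for SCI8d minus SCI3d, and 14 and 13 for SCI14d minus SCI3d. Leaving out 1 array in turn gave 17 to 22 for SCI3d minus CTR, 2 to 9 for SCI8d minus CTR, 1 to 3 for SCI14d minus CTR, 6 to 10 for SCI8d + TM minus CTR, 10 to 17 for SCI8d minus SCI3d and 18 to 25 for SCI14d minus SCI3d. With median centring, SCI14d minus SCI3d had 34. In that comparison the median log2 difference of all genes was 0.15 as deposited, -0.08 with median centring and 0.36 with scaling to Gapdh. The training comparisons and SCI14d + TM minus CTR stayed at 0 under every alternative run.

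The replicate numbers of the labels were not used to pair the rats. Same-numbered arrays had correlations of -0.117 to 0.161 in their deviations. In each comparison 1 to 3 of 6 arrays correlated best with the array of their own number. A fit with the replicate block gave 24, 5 and 1 genes on days 3, 8 and 14. It gave 9 for SCI8d + TM minus CTR, and 15 and 25 for days 8 and 14 against day 3. With replicates 5 and 6 treated as a batch, SCI14d minus SCI3d had 28. Of single genes, Eif4g3 in SCI8d + TM minus CTR turned to 0.25 with the mean of its probe sets and 0.96 with its other probe set, and Eif4g1 in SCI14d minus SCI3d to 0.43 with another probe set. In all, 1475 of the processing alternatives of single genes were counted as unchanged, 174 kept direction only and 1 turned. Dropping single arrays left 1163 unchanged, with 157 keeping direction only. The unchanged ones include genes without a call, whose direction was not always kept. Eif4ebp1 in SCI8d minus CTR was never called and stood at -0.02 as reported. It was counted as unchanged throughout, while its log2 difference ran from -0.16 to 0.08 over all alternatives. Dim signals limit Eif2s3y, which a filter on the dimmest 40% of probe sets removed.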
